A study of Mus musculus with 6 samples.

Results

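The signaling axis that runs from the prolactin receptor through Stat5 to Elf5 was examined as 9 genes chosen by name: Prlr, Jak2, Stat5a, Stat5b, Elf5, Nfib, Cish, Socs2 and Socs3. They were read from 17 of the 55681 gene probes on 2-color mouse arrays. All 9 were among the 22502 genes or unnamed transcripts tested, and on all 6 arrays each of the 17 probes exceeded the scanner's background limit (well above background) in the 2 channels.

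The arrays compared RANK-/- with RANK+/+ tumor cells. RANK, encoded by Tnfrsf11a, is the receptor activator of NF-kB. Cells of late mammary carcinomas from MMTV-PyMT mice, in which a mammary tumor virus promoter drives the polyomavirus middle T oncogene in mammary epithelium, were transplanted orthotopically into syngeneic C57BL/6 hosts. All donors were of strain C57BL/6 and carried the oncogene, and they differed in the label RANK-/- or RANK+/+. Live CD45- cells, which lack a surface protein of leukocytes, were then sorted from the grown tumors, so host stroma without CD45 could also be collected and would have the host's genotype. The labels do not give the age of the animals. The 6 arrays held 3 pairs of RNAs, one RNA per label, with array A and array B as technical replicates of each pair. RANK-/- RNA was in Cy5 in pair 1 and in Cy3 in pairs 2 and 3. The design text calls the RNAs biological replicates without saying that each came from a different tumor. The spread between pairs may therefore not be a spread between tumors. Across genes its median SD was 0.329, beside 0.0633 between arrays A and B.

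Prolactin binds its receptor on mammary epithelial cells, and the receptor-bound kinase Jak2 then phosphorylates Stat5a and Stat5b, which enter the nucleus and drive alveolar and milk protein genes. Elf5, an Ets factor of luminal progenitor and alveolar cells, acts in the same program, and Nfib binds milk gene promoters beside Stat5. Cish, Socs2 and Socs3 are transcribed in response to Stat proteins and dampen the receptor and its kinase. RANK acts in the same alveolar lineage, as a mediator of progesterone.

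Throughout, levels are log2 intensities after normalization, and log2 ratios set the channel labeled RANK-/- over the other. The targeted gene went against its label. Tnfrsf11a (NM_009399) gave more signal where the label was RANK-/-, with log2 ratios of 2.03, 1.15 and 1.76 in the 3 pairs. Their mean was 1.65 ± 0.45 (SD, n = 3), with a limma unadjusted p of 0.00131 and adjusted p of 0.999. Its levels were 13.07 to 13.55 in the RANK-/- channel and 11.32 to 12.21 in the other. These ranges did not overlap, as was found for 7.48% of all genes. The labels were kept as given. Whether they were exchanged, which would turn the sign of every ratio here, was not tested. Where its probe lies relative to the deleted part is not given in the sources used here. Across genes, the technical replicates correlated with r of 0.973 to 0.983, and the pairs with one another with r of -0.279 to 0.178. Limma called 0 of 22502 genes at an adjusted p under 0.05 (0%), with 647 at an unadjusted p under 0.05 (2.88%), and the rank product called 19 (0.0844%). All 6 arrays lay on 1 slide, which could not be tested as a batch.

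RefSeq promoter windows (GRCm38.p6; 250 bases before to 50 after a gene's start) were given for 7 of the 9 genes, 12 windows in all, and not for Socs2 and Nfib. The palindromic Stat motif TTCNNNGAA was found in 3 of the 12 windows, those of Cish, Socs3 and 1 of 3 for Prlr, and in 8.3% of all 32851 windows. These 3 stretches are shown because they hold the motif. Capitals mark the motif. The Prlr stretch is at chr15:10223656-10223905 (plus strand), the Socs3 stretch at chr11:117969367-117969616 (minus strand) and the Cish stretch at chr9:107296649-107296678 (plus strand). For Prlr and Socs3 the 250 bases before the start are given, and for Cish 30 bases across the start, where 2 copies of the motif lie at the first base and at base 12.
Prlr: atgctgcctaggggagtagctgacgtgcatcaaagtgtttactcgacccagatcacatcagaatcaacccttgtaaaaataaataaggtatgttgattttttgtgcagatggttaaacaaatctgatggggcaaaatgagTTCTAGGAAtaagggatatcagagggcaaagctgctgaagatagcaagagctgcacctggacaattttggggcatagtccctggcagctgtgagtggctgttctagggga
Socs3: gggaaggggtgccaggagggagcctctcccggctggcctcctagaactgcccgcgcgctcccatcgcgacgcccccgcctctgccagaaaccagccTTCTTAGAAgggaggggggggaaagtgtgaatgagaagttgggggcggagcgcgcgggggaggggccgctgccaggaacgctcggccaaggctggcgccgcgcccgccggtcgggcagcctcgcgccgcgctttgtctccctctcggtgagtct
Cish: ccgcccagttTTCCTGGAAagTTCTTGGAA
The motif began 110 bases before the start in the Prlr window and 154 bases before the start of Socs3. The nuclear factor I half-site TTGGCA, searched on both strands, was in 1 of the 12 windows, the same Prlr window, and in 14.1% of all windows. The Ets core CGGAAG, searched on both strands, was in 0 of the 12 and in 16.9% of all windows. No match overlapped a match of another motif. A match is a description of the letters and not evidence that a factor binds there.

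The receptor and its kinase were both higher in the RANK-/- channel in pairs 1 and 3 and lower in pair 2, and neither passed the test. Prlr (NM_011169), the prolactin receptor, had levels of 12.00 in the RANK-/- channel and 11.33 in the RANK+/+ channel of pair 1, in the same order 11.03 and 11.91 in pair 2, and 12.00 and 10.57 in pair 3. The RANK-/- channel was thus the higher one in pairs 1 and 3 and the lower one in pair 2, and the channel ranges overlapped. On the brightest probe, ranges that did not overlap were found for 0 of the 9 genes of the axis and for 7.48% of all genes. The ratios were 0.67, -0.88 and 1.43, or 1.59-fold, 0.542-fold and 2.70-fold. Their mean was 0.41 ± 1.18 (SD, n = 3), with a 95% interval of -0.90 to 1.71 and a limma adjusted p of 0.999. This spread was wide: 3.8% of genes had a larger SD, and the SD between arrays A and B was 0.08. A second, dimmer Prlr probe kept the order of pairs 2 and 3 and was near 0 in pair 1, with ratios of -0.07, -0.42 and 0.84. In bulk RNA, fewer cells of a type and less RNA per cell cannot be told apart, here and for the genes that follow.

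Jak2 (NM_008413), the tyrosine kinase bound to the receptor, had levels of 10.53 in the RANK-/- channel and 10.25 in the RANK+/+ channel of pair 1, in the same order 10.02 and 10.47 in pair 2, and 10.65 and 9.73 in pair 3. Pair 2 again ran the other way, and the channel ranges overlapped. The ratios of 0.29, -0.45 and 0.93 gave a mean of 0.25 ± 0.69 (95% interval -0.56 to 1.07, limma adjusted p 0.999). Without pair 3, the mean was -0.11 for Prlr and -0.08 for Jak2.

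**Figure D1:**
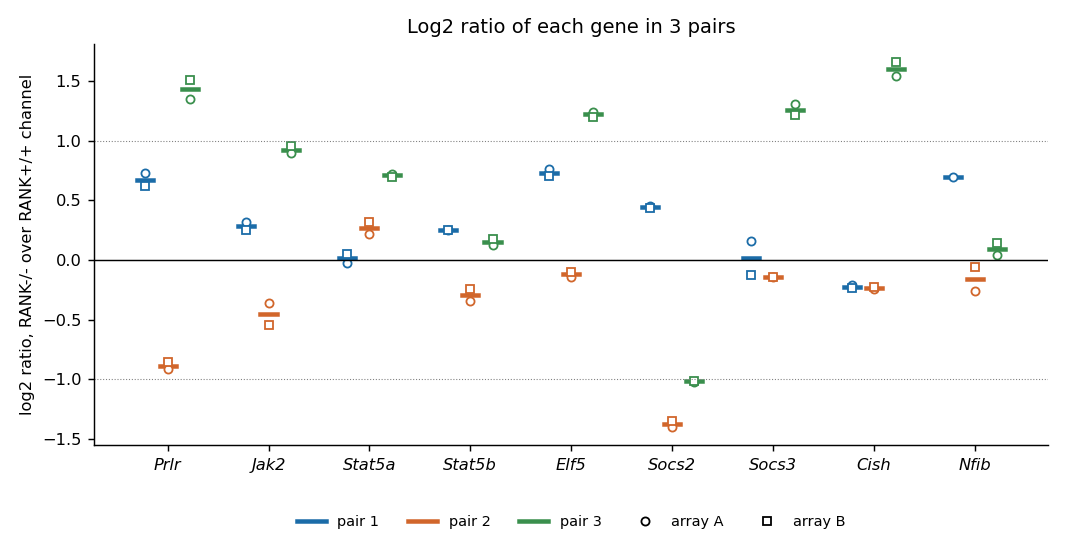
Log2 ratio of the RANK-/- over the RANK+/+ channel (y axis) for the 9 genes (x axis), with a bar for each pair, a circle for array A and a square for array B; dotted lines mark 2-fold. Arrays of a pair lie close together, whereas Prlr runs from -0.88 in pair 2 to 1.43 in pair 3, and Nfib has no array B value in pair 1.

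A list of 10 other genes held cytokine receptors related to Prlr, the hormones Prl and Gh, and the insulin-like growth factor genes Igf1 and Igf1r. Of these, 7 were tested and 0 were called. The median of their mean ratios was 0.07, beside 0.00 over all genes tested. The means of largest size were those of Ghr, the growth hormone receptor, which also acts through Jak2 and Stat5 (1.03, -0.05 and 0.47), and of Igf1, a hormone that growth hormone induces (-0.43, 0.60 and 1.02). Prl, which encodes prolactin, exceeded background on 0 of 6 arrays in both channels and was not tested. Gh, on 1 array in each channel, and Il7r, on 0 in the RANK-/- channel and 2 in the other, were not tested either.

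The level of the Stat5 genes followed the pair more than the label. Stat5a (NM_011488), which carries most of the prolactin response in the gland, had levels of 10.57 in the RANK-/- channel and 10.55 in the RANK+/+ channel of pair 1, in the same order 11.70 and 11.43 in pair 2, and 11.09 and 10.38 in pair 3. Both channels of pair 2 lay above the other 4 values, and the channel ranges overlapped. The ratios were 0.01, 0.27 and 0.71, with a mean of 0.33 ± 0.35 (95% interval -0.19 to 0.85, limma adjusted p 0.999). Stat5a was the 1 gene of the axis with the same sign in all 3 pairs, where 19.6% of all genes had it. Its sign in pair 1 was unsettled: arrays A and B gave -0.02 and 0.05, the deposited table -0.02 and the scanner's processed signals -0.08.

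Stat5b (NM_011489), the partner of Stat5a and the main Stat5 of the growth hormone response, had levels of 10.70 in the RANK-/- channel and 10.45 in the RANK+/+ channel of pair 1, in the same order 11.26 and 11.55 in pair 2, and 11.04 and 10.89 in pair 3. Pair 2 was again the highest in both channels, and the channel ranges overlapped. The ratios of 0.25, -0.29 and 0.15 averaged 0.04 ± 0.29 (95% interval -0.44 to 0.51, limma adjusted p 0.999), a mean whose sign turned with median centring (-0.18) and with processed signals (-0.07). The second probe gave 0.13, -0.02 and 0.47. The transcripts of Stat5a and Stat5b are alike over long stretches, and how far each probe also binds the other transcript is uncertain.

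**Figure D2:**
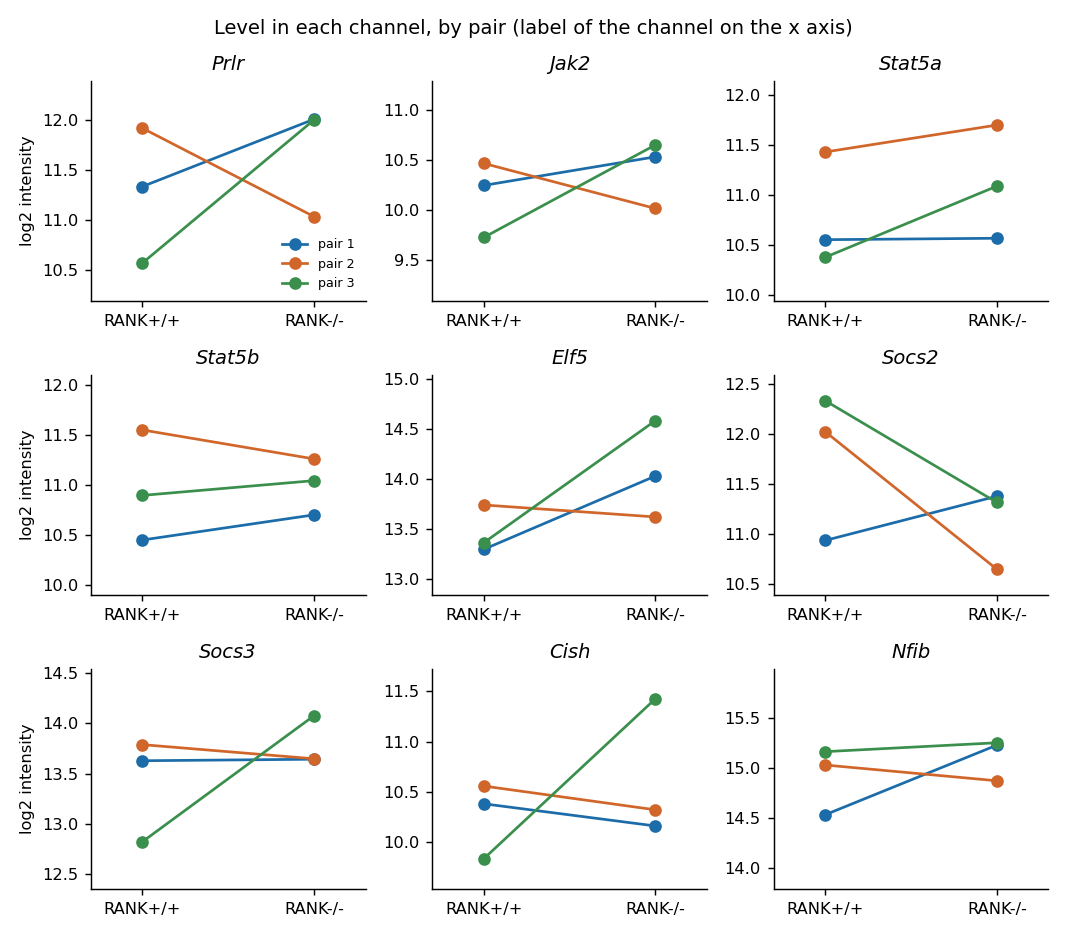
Log2 intensity (y axis, of the same height in every panel) of the brightest probe of each gene in the RANK+/+ and RANK-/- channels (x axis), with a line for each pair. Lines cross for most genes, and for Stat5a both ends of the pair 2 line (11.43 and 11.70) lie above the other pairs.

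Stat5b, Stat5a and Stat3 are consecutive protein-coding genes in the RefSeq order. Among 8 other Janus kinase and Stat genes, 0 were called and 1 had an unadjusted p under 0.05. This was Stat3, the Stat of involution after weaning, at 0.95, 0.35 and 1.23 (mean 0.84 ± 0.45, limma unadjusted p 0.0168, adjusted p 0.999). It was higher in the RANK-/- channel in all 3 pairs.

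Among 12 other negative regulators of Jak2 and Stat5, 11 were tested, 0 were called and 2 had an unadjusted p under 0.05. Ptpn1, a phosphatase that acts on Jak2, was higher in the RANK-/- channel in all pairs at 0.91, 0.50 and 0.76 (mean 0.72 ± 0.21, limma unadjusted p 0.00837, adjusted p 0.999). Bcl6, a repressor that binds Stat5 sites, was at 0.60, 0.29 and 1.33 (mean 0.74 ± 0.54, limma unadjusted p 0.0378, adjusted p 0.999). The median of the mean ratios of the list was 0.01, beside 0.00 over all genes. Pias3, above background on 0 arrays in the RANK-/- channel and 1 in the other, was not tested.

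Among the transcription factors, Elf5 had the largest positive mean of the axis. Elf5 (NM_010125) had levels of 14.03 in the RANK-/- channel and 13.30 in the RANK+/+ channel of pair 1, in the same order 13.62 and 13.74 in pair 2, and 14.58 and 13.36 in pair 3. The RANK+/+ values lay within 0.44 of one another, and the ranges overlapped through pair 2, where the RANK-/- value was the lower one. The ratios of 0.73, -0.12 and 1.22 averaged 0.61 ± 0.68 (95% interval -0.19 to 1.42). The unadjusted p in the limma fit was 0.105, the smallest of the 9, and the adjusted p was 0.999. Without pair 2 the mean was 0.98 (limma adjusted p 0.550), and without pair 3 it was 0.31.

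By distance over the 3 pair ratios, the named genes nearest to Elf5 were Ncam1 (0.67, -0.07 and 1.19; distance 0.09), Csprs (distance 0.09) and Btbd9 (distance 0.10). Such likeness was common, since 1796 of 14672 named genes lay within 1 log2 unit of Elf5. For Prlr the nearest were Atp13a3 (distance 0.12), Tiparp and Muc15 (0.17 each), with 566 genes within 1 log2 unit.

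The 5 other epithelial Ets factors were all tested and 0 were called. Their median ratios were 0.44, -0.89 and 1.00 in the 3 pairs, with 4 of 5 above 0 in pair 1, 1 in pair 2 and 5 in pair 3. The largest means were those of Ets2 (1.21, -0.95 and 1.46) and Spdef, a luminal Ets factor (0.84, -2.02 and 2.21). Ehf, which lies next to Elf5 in the RefSeq order and was named for that, was at 0.44, -0.72 and 0.49.

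Nfib, a nuclear factor I protein, was read from 5 probes. Its brightest probe (NM_001113209) was marked as an outlier on array 1B, so pair 1 rests on array 1A alone. There it had levels of 15.23 in the RANK-/- channel and 14.53 in the RANK+/+ channel, with 14.87 and 15.03 in pair 2 and 15.25 and 15.17 in pair 3. The channel ranges overlapped, and the RANK+/+ value of pair 1 was the lowest of the 6. The ratios of 0.70, -0.16 and 0.09 averaged 0.21 ± 0.44 (95% interval -0.38 to 0.80, limma adjusted p 0.999), a mean that turned to -0.23 with median centring and to -0.03 without pair 1.

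The other Nfib probes did not all follow it. A_55_P2143431 gave 0.85, 0.10 and 0.30, with RANK-/- levels of 14.28 to 14.56 and RANK+/+ levels of 13.71 to 14.23. It was the 1 probe of the 17 whose channel ranges did not overlap, beside 7.37% of the 30228 kept probes with values in all pairs. A_55_P2086692 (0.96, -0.25 and -0.00) and A_66_P135165 (0.48, -0.09 and -0.08) were highest in pair 1, like the brightest probe. A_55_P2086687, designed to another accession of the gene (NM_008687), gave -0.23, 0.36 and 0.04 and was the 1 Nfib probe below 0 in pair 1. The 3 other nuclear factor I genes were all tested and 0 were called. Nfia was at 1.44, -0.23 and 0.37, and Nfix was above 0 in all pairs at 0.26, 0.16 and 0.39.

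**Figure D3:**
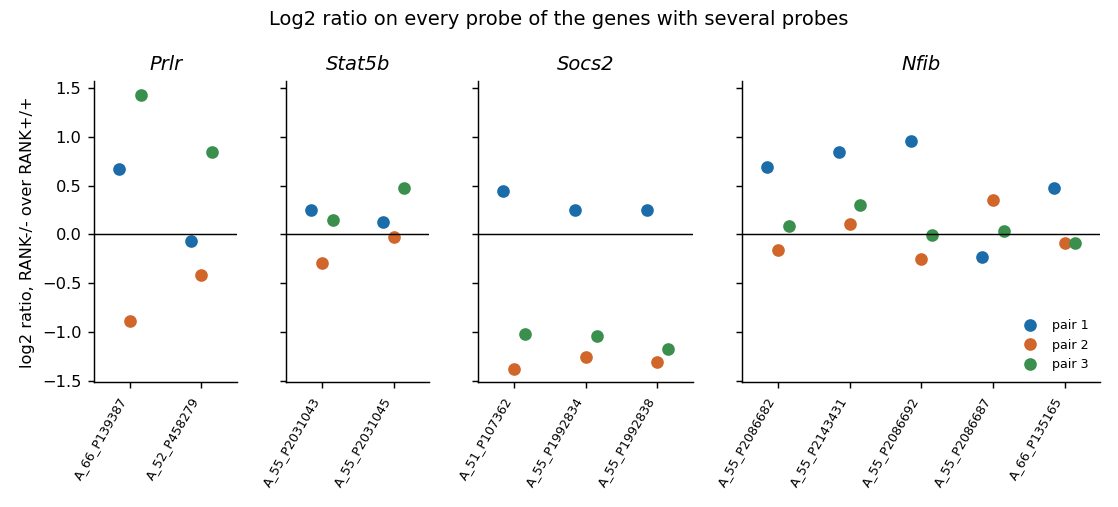
Log2 ratio of the RANK-/- over the RANK+/+ channel (y axis) in the 3 pairs on every probe (x axis) of Prlr, Stat5b, Socs2 and Nfib, the genes with several probes, with the brightest probe on the left. The 3 Socs2 probes give nearly the same values, whereas Nfib probe A_55_P2086687 is at -0.23 in pair 1, where the other 4 lie between 0.48 and 0.96.

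The feedback inhibitors did not share a direction. Cish (NM_009895), which binds the activated receptor and is a direct Stat5 target, had levels of 10.16 in the RANK-/- channel and 10.38 in the RANK+/+ channel of pair 1, in the same order 10.32 and 10.56 in pair 2, and 11.43 and 9.83 in pair 3. Pair 3 held both the highest and the lowest of the 6 values, and the channel ranges overlapped. The ratios of -0.22, -0.24 and 1.60 averaged 0.38 ± 1.06 (95% interval -0.80 to 1.56, limma adjusted p 0.999), and the mean was -0.23 without pair 3. The ratio in pair 3, or 3.03-fold, was the largest of the axis. The named genes nearest to Cish were Trip10 (distance 0.13), Sgms1 (0.14) and Gch1 (0.18), with 705 genes within 1 log2 unit.

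Socs3 (NM_007707), which inhibits Janus kinases and is induced by Stat3 as well as Stat5, had levels of 13.64 in the RANK-/- channel and 13.63 in the RANK+/+ channel of pair 1, in the same order 13.65 and 13.79 in pair 2, and 14.08 and 12.82 in pair 3. As for Cish, pair 3 held the highest and the lowest value, and the channel ranges overlapped. The ratios of 0.02, -0.14 and 1.26 averaged 0.38 ± 0.77 (95% interval -0.51 to 1.27, limma adjusted p 0.999), and the mean was -0.06 without pair 3. In pair 1 arrays A and B differed in sign (0.16 and -0.13). By distance over the 3 pair ratios, Cish and Socs3 were the closest of the 36 pairs of genes in the axis (0.42).

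Socs2 (NM_007706), which limits growth hormone and prolactin signaling, was the 1 gene of the axis with a negative mean. Its levels were 11.38 in the RANK-/- channel and 10.94 in the RANK+/+ channel of pair 1, in the same order 10.65 and 12.02 in pair 2, and 11.32 and 12.33 in pair 3. The RANK+/+ values of pairs 2 and 3 lay above the other 4, and the ranges overlapped through pair 1. The ratios of 0.44, -1.38 and -1.02 averaged -0.65 ± 0.96 (95% interval -1.73 to 0.43, limma adjusted p 0.999). Its other probes gave 0.25, -1.26 and -1.04, and 0.25, -1.31 and -1.18. Without pair 1 the mean was -1.20 (limma unadjusted p 0.00732, adjusted p 1.000). Pair 1 was also the one with RANK-/- RNA in Cy5, so pair and dye arrangement cannot be told apart here. The 5 other Socs genes were all tested and 0 were called, and Socs1 (0.16, 0.44 and 0.14) and Socs6 (-0.48, 0.12 and -0.30) had the largest means.

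Over the whole axis, 0 of the 9 genes were called by limma or by the rank product, beside 0% and 0.0844% of all genes. An unadjusted limma p under 0.05 was found for 0 of the 9 and for 2.88% of all genes. The number above 0 was 8 in pair 1, 1 (Stat5a) in pair 2 and 8 in pair 3, beside 52%, 48.3% and 50.1% of all genes. The count in pair 1 depended on the processing and ranged from 6 to 9 over the normalizations tried. Those in pairs 2 and 3 ranged from 0 to 1 and from 6 to 8. A difference of at least 2-fold was found for 0 of the 9 in pair 1, for Socs2 in pair 2, and for Prlr, Elf5, Socs2, Socs3 and Cish in pair 3, where 6.5%, 4.82% and 7.92% of all genes had one. In pair 3 Socs2 was lower and the other 4 were higher in the RANK-/- channel.

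**Figure D4:**
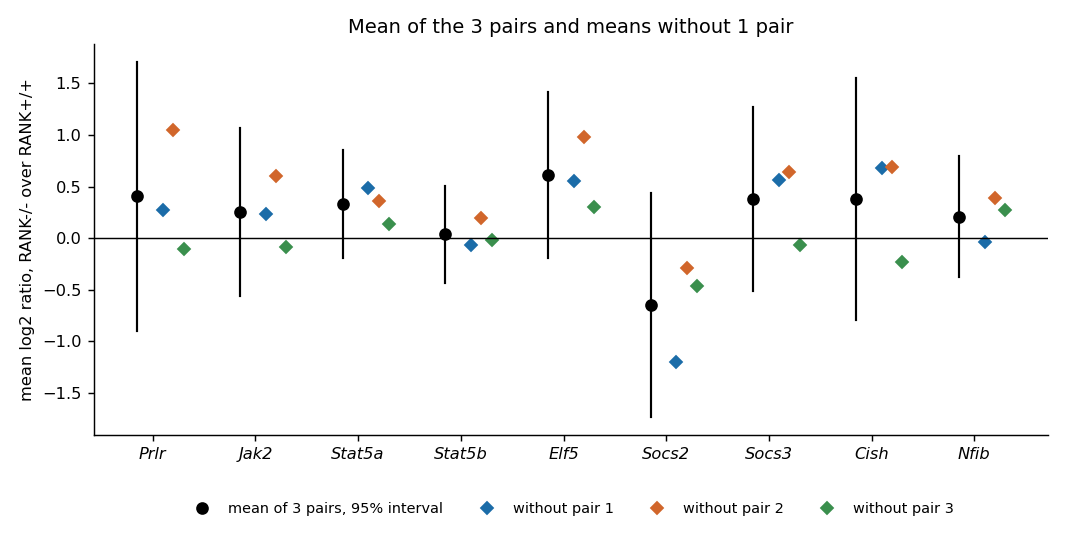
Mean log2 ratio over 3 pairs with its 95% interval from limma (black), and the mean without 1 pair (diamonds), for the 9 genes. Every interval spans 0, and the means of Prlr, Jak2, Stat5b, Socs3 and Cish fall below 0 without pair 3.

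Genes downstream of the axis were read next. Of 14 Stat5 target genes outside the Socs family, 13 were tested and 0 were called by limma, and 1 by the rank product. This was Wap, a whey milk protein, at 3.75, 0.71 and 3.82 (pfp 0.00435, limma adjusted p 0.999). The other large means were mixed: Glycam1 was at -2.62, -2.46 and 0.22, and Csn2, which encodes beta-casein, at -3.88, 0.66 and 0.39. Both were dim, with mean log2 intensities of 7.03 for Glycam1 and 6.81 for Csn2, beside 12.20 for Wap. Brighter milk protein genes, named after their values were seen, were mixed too. Lalba (mean log2 intensity 13.57) was at -1.62, -2.07 and 5.44, and Csn1s1 (11.82) at -0.86, -3.04 and 3.29. Of the 13 tested, 6, 4 and 12 were above 0 in the 3 pairs. The medians over the list were -0.18, -0.35 and 1.00 in the 3 pairs. Osm was well above background on at most 3 arrays in a channel and was not tested.

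Of 15 regulators of alveolar or hormone-sensing luminal cells, 13 were tested, 0 were called and 2 had an unadjusted p under 0.05. Foxa1, a factor of hormone-sensing luminal cells, was lower in the RANK-/- channel in all pairs at -0.97, -2.10 and -0.66 (mean -1.24 ± 0.76, limma unadjusted p 0.0165, adjusted p 0.999). Id2, named for its p, was also lower in all pairs, at -0.58, -0.41 and -1.19 (limma unadjusted p 0.0225, adjusted p 0.999). Pgr, the progesterone receptor, was at 0.04, -2.20 and -0.11 on a dim probe (mean log2 intensity 7.07). The list as a whole was divided, with 9, 4 and 8 of the 13 above 0 in the 3 pairs. Its medians were 0.07, -0.38 and 0.22, and the median of its mean ratios was -0.08, beside 0.00 over all genes. Erbb4 and Igf2 were above background on 0 arrays. The 10 Stat3 and involution genes were all tested and 0 were called. Il6 was at 0.60, 0.37 and 3.02 and its receptor Il6ra at 1.28, 0.52 and 1.34 (limma unadjusted p 0.00808, adjusted p 0.999 for Il6ra). These 2 were above 0 in all pairs, as was Osmr, named after its values were seen. The medians of the list were 0.67, 0.23 and 1.45.

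The luminal cell type markers moved with the pairs as well, whereas the summed fibroblast and basal markers kept 1 direction. All 5 luminal epithelial markers were tested, and their summed intensity was 234646, 96917 and 380841 in the RANK-/- channel and 201716, 228058 and 136328 in the RANK+/+ channel of pairs 1, 2 and 3. This sum was thus the higher in the RANK-/- channel in pairs 1 and 3 and the lower in pair 2. The levels of Prlr, Jak2, Stat5b, Elf5, Nfib and Socs3 had the same order, with Socs3 near 0 in pair 1 (0.02). Those of Stat5a, Socs2 and Cish did not. Krt18, named for its intensity, weighed most in this sum and was at 0.45, -1.34 and 1.65. Its mean log2 intensity was 17.04, beside 14.68 for Krt8, the next brightest of the 5. Of these markers, 3 were above 0 in pair 1, 0 in pair 2 and 4 in pair 3. The largest means were those of the keratin genes Krt19 (-1.22, -3.95 and 0.03) and Krt8 (-0.41, -0.55 and 2.08). The 4 luminal progenitor markers had medians of 0.33, -0.46 and 0.77, with summed intensities of 24586 to 43168 in the RANK-/- and 16052 to 43233 in the RANK+/+ channel, and Cd14 and Aldh1a3 had the largest means (0.61 and -0.28).

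All 6 fibroblast markers were above 0 in pairs 2 and 3, and 3 were in pair 1. Their summed intensity was 137045 to 221739 in the RANK-/- channel and 46485 to 140910 in the other. Within each pair it was the higher in the RANK-/- channel. The genes Col1a2 (0.61, 0.85 and 2.38) and Dcn (-0.71, 1.50 and 2.92) had the largest means. In pair 3, where 5 of the 9 genes of the axis differed by at least 2-fold, the fibroblast markers had their highest median, 2.17. The part of luminal and fibroblast content in the ratios of the axis was not tested.

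The 7 basal markers were all tested and had medians of 0.00, 0.02 and -0.01, with Krt17 (mean -1.23) and Krt5 (mean -1.07) at the largest means. Their summed intensity was 27703 to 31666 in the RANK-/- and 33987 to 53348 in the RANK+/+ channel. Within each pair the sum was the lower in the RANK-/- channel. Single basal markers were divided, with 4, 4 and 3 of 7 above 0 in the 3 pairs. Of 9 leukocyte markers, 5 were tested. Cd79a was above background on 0 arrays, Cd8a on at most 2, and Ly6g had 0 probes matched. The 5 tested genes had medians of -0.11, 0.20 and 0.03 and summed intensities of 5967 to 8463 in the RANK-/- and 6219 to 6697 in the RANK+/+ channel. Itgam, at a mean ratio of 0.10, was the brightest (mean log2 intensity 12.47) and weighed most in these sums. Ptprc, which encodes CD45, was at -0.93, 0.10 and 0.14 on a dim probe (6.49). The 4 endothelial markers had medians of 0.01, -0.13 and 0.47 (summed 2767 to 3179 and 2237 to 2972), with Tek and Kdr at means of 0.21 and 0.17. The adipocyte genes Adipoq, Plin1 and Cidec were above background on 0 arrays, and the 2 tested, Fabp4 and Cfd, were at means of 0.27 and -0.09 (summed 903 to 1565 and 865 to 1419).

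**Figure D5:**
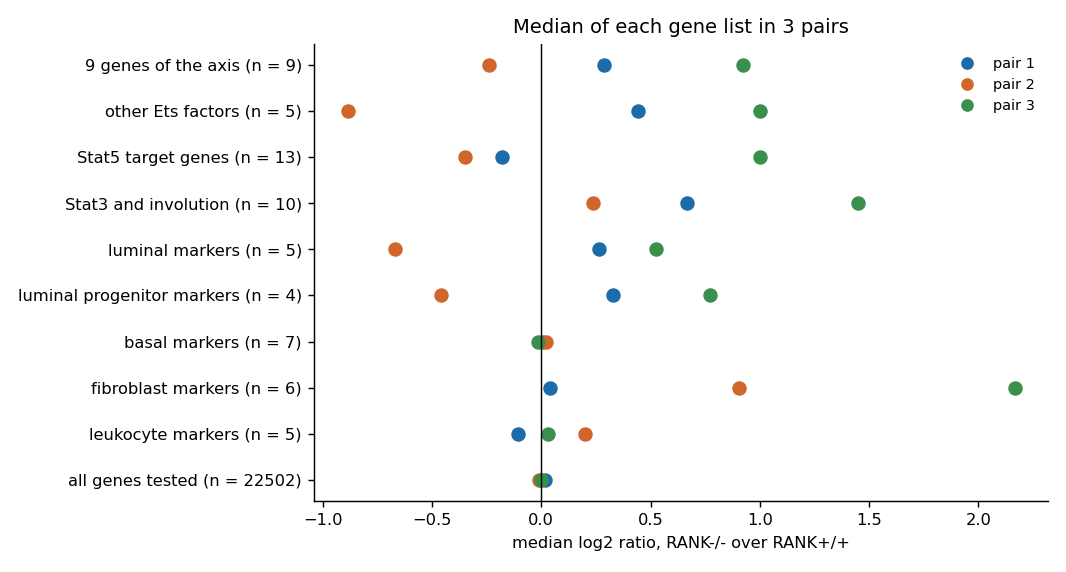
Median log2 ratio of the RANK-/- over the RANK+/+ channel (x axis) in each of 3 pairs, for the 9 genes of the axis, related gene lists and cell type markers (y axis, with the number of genes tested). The axis, the other Ets factors and the luminal markers lie on the negative side in pair 2 and on the positive side in pairs 1 and 3, and the fibroblast median reaches 2.17 in pair 3.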

How the data were processed

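RNA of sorted CD45- tumor cells was measured on 6 2-color SurePrint G3 arrays. The authors extracted spots with Agilent Feature Extraction 10.7.3.1, and the deposited scanner files give unnormalized median intensity and background intensity in each channel. The deposited table of the series holds log2 ratios normalized by the authors, used as an alternative, as were the scanner's processed signals. Its direction was set by comparison with the scanner ratios (r of 0.977 to 0.98).

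Median signals were corrected with normexp (offset 50) in limma 3.58.1 (R 4.3.3, with the data.table package, version 1.17.8), then normalized by intensity loess and Aquantile. Control spots and spots marked as outliers were left out. The study also used a spatial loess, run here as an alternative. Arrays A and B were averaged, giving 3 pair ratios. Groups, pairs and dyes came from the labels, which show no dye swap within a pair, although the methods describe dye swaps. A probe was kept (30231 were) if, in the channel of one genotype, arrays A and B of 2 or more pairs both exceeded the scanner's background limit. Accessions gave RefSeq symbols (GRCm38.p6) to 28026 of 55681 gene probes, and the brightest kept probe stood for a gene.

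All 22502 genes were tested with limma (intercept only, two-sided, Benjamini-Hochberg, threshold 0.05) and a rank product (proportion of false positives, pfp, under 0.05; computed null). Both were tested on simulated data. With 3 pairs a two-sided sign-flip test cannot go below 0.25. The number of arrays limits the precision.

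The 9 genes and the lists were chosen with earlier results of these data known. Named were all genes of the axis, in each list the 2 largest means and any gene with 1 sign in all pairs and a mean of at least 1 in size, and the 3 named genes nearest to Elf5, Prlr and Cish. Some genes that this rule names are not reported here. Alternatives covered background correction, normalization, filter, probe choice, technical replicates, dye, pairing and leaving out a pair.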

Additional observations from a re-analysis of the deposited data

How the results depend on the processing

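Under all 18 alternatives limma called 0 of the 9 genes. Of 160 values of single genes, 10 turned sign and 0 passed the threshold. With median centring, Stat5b was at -0.18 and Nfib at -0.23, and with processed signals Stat5b was at -0.069. Median centring put the median of all genes at 0.13, -0.19 and -0.39 in the 3 pairs, and relative to it 8, 1 and 6 of the 9 genes were higher. When 1 pair was left out, the mean of Prlr ranged from -0.11 to 1.05, Jak2 from -0.082 to 0.61, Stat5b from -0.071 to 0.20 (-0.071 without pair 1 and -0.019 without pair 3), Socs3 from -0.063 to 0.64, Cish from -0.23 to 0.69 and Nfib from -0.034 to 0.39. The means of Stat5a (0.11 to 0.49), Elf5 (0.27 to 0.98) and Socs2 (-1.20 to -0.29) kept their sign under every alternative run.

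Counts over all genes moved with the technical replicates: limma called 298 genes with the 6 arrays as separate replicates against 0, and 13 with a random block for pairs, and the rank product called 728 with 6 separate arrays, 36 without a filter on dim probes, and 2 to 22 without 1 pair (4 without pair 1, 2 without pair 3), against 19. The consensus correlation of arrays within pairs was 0.962, so 6 arrays are not 6 independent samples. With no replicate block, taking the channels as 3 against 3 samples instead of paired ratios, limma called 0 genes and 0 of the 9, and the channels of a pair did not deviate together (r of -0.03, -0.22 and -0.04). For Nfib, array B alone and the 6 separate arrays gave no value, because its brightest probe was marked as an outlier on 1 array.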
